A study of Mus musculus with 4 samples.

Results

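The genes described here are 8 regulators of DNA methylation and genomic imprinting: the methyltransferase genes Dnmt1, Dnmt3a, Dnmt3b and Dnmt3l, the maintenance factor Uhrf1, and the imprint protectors Dppa3, Trim28 and Zfp57. They were chosen by name, and every probe other than controls whose gene name in the array files was one of the 8 was taken. The 8 were among 27962 gene names on the array. They had 11 of its 41174 probes, with 3 for Dnmt3a, 2 for Uhrf1 and 1 for each other gene. The treated mouse oocytes spent 60 min at 20 MPa of hydrostatic pressure and 37 °C, and the control oocytes were handled alike without that pressure. On each of 4 arrays a treated pool was set against a control pool, each made of 50 oocytes. The series' text calls the replicates biological. The labels give no strain, age or meiotic stage, and a pool gives no view of single oocytes. RNA of 240 pg per pool was amplified in 2 rounds. The treated pool carried the red dye (Cy5) and the control pool the green dye (Cy3) on all 4 arrays, so dye and treatment cannot be told apart.

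DNA methylation in mammals is set on CpG sites by the de novo enzyme Dnmt3a, which in the growing oocyte works with Dnmt3l, a relative without catalytic activity of its own that stimulates it. Dnmt3b is the other de novo enzyme. Dnmt1 copies methylation onto the new strand after DNA replication, and Uhrf1 brings it to hemimethylated sites. Oocytes use a form of Dnmt1 with a shorter amino terminus. The methylation laid down in oocytes marks the maternally methylated imprinted regions, which must outlast the loss of methylation in the early embryo. Dppa3 (also called Stella or PGC7) is an abundant maternal protein that shields the maternal genome from this loss. The zinc finger protein Zfp57 binds methylated imprinted regions and brings in Trim28, a scaffold for repressive chromatin enzymes. Maternal Trim28 is needed for imprints in the mouse embryo, and so is Zfp57.

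The probes are 60 bases long, and for 3 of the 11 the genome span in the files exceeded the probe's length, as for a probe across an exon junction. These 3 are shown whole, because each belongs to a gene whose values are given below and its coordinates skip genomic bases. Sequences run 5′ to 3′ as in the files, and capitals mark every triplet that would be a stop codon in some frame.
Dnmt1, chr9:20784085-20784453, minus strand: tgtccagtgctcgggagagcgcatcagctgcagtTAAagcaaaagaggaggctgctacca
Dnmt3a, chr12:3825243-3826024, plus strand: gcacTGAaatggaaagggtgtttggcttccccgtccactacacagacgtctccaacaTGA
Trim28, chr7:11617146-11617301, plus strand: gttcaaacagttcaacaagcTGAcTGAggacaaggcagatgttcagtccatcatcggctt
Positions are those of the array files, in mouse build mm7. The bases skipped inside the span numbered 309 for Dnmt1, 722 for Dnmt3a and 96 for Trim28. Read in the direction shown, 2 of 3 frames were free of stops in Dnmt1 and 1 of 3 in Dnmt3a and in Trim28.

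The other 8 probes lay on unbroken stretches of 60 bases. The first 30 bases of 3 of them are shown, because Uhrf1 and Dppa3 carry the strongest signals described below.
Uhrf1, upstream probe, chr17:54481380-54481439, plus strand: catggaaggcagagatgtgttatcagttcc
Uhrf1, downstream probe, chr17:54481483-54481542, plus strand: gcgagaTAAatgggtttcctcgaTGAattt
Dppa3, chr6:122666937-122666996, plus strand: TAAccttTAAattgTAGaTAGgatgcacaa
Over their full length, the downstream Uhrf1 probe and the Dppa3 probe had a stop triplet in each of the 3 frames, so neither can lie wholly inside a coding sequence. The same held for the middle Dnmt3a probe, at 3826602 to 3826661 on chromosome 12. The 2 Uhrf1 probes are 43 bases apart. The remaining probes lie at 3830965 to 3831024 on chromosome 12 for Dnmt3a, 153428204 to 153428263 on chromosome 2 for Dnmt3b, 77717971 to 77718030 on chromosome 10 for Dnmt3l and 35161850 to 35161909 on chromosome 17 for Zfp57. The middle and last Dnmt3a probes start 577 and 4940 bases past the end of the first one. Whether the 8 unbroken probes lie in exons or untranslated regions was not analysed here.

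The arrays differed in overall brightness. Of 43379 spots other than controls, 7049 to 11155 were well above background in treated pools and 8309 to 10837 in control pools. The median net signal over tested probes, which is the spot mean minus the local background, was 2.17 times as high in the treated as in the control pool on replicate 1, and 0.201 to 0.337 times as high on the others. Across all probes the log2 ratios of replicate 1 correlated with those of the other arrays at r = -0.19 to -0.15, whereas the other pairs had r of 0.086 to 0.29. Results are therefore also given without replicate 1. Detection of cell type markers was checked on lists, and 9 of the 13 oocyte markers on the array had a tested probe. They were Zp3, Gdf9, Bmp15, Kit, Dazl, Nobox, Npm2, Ooep and Oosp1. Listed oocyte markers without a tested probe included Zp1, Zp2, Nlrp5, Mos and Figla. The list held 15 oocyte markers and the array 13 of them by name, so these were not all on the array. Of the 19 cumulus and granulosa markers 7 had a tested probe, and of 8 blood and immune markers 2 did. Of 13 markers of oviduct epithelium, endothelium and stroma 3 did. In that order of lists, their median log2 ratios were 0.05, -0.07, -0.12 and 0.16, and 0 genes of any of them passed the test. For comparison, 19.7% of all probes were tested. The marker counts are of genes, and over the whole array 6921 genes, by updated names, were tested. The array files held 27962 gene names. Counts of detected markers do not establish the purity of the pools.

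Transcripts of 6 of the 8 genes were measured well enough to be tested. A probe was tested if 3 or more arrays showed it well above background in one and the same channel, a rule met by 7 of the 11 member probes and by 19.7% of all probes. The probes of Uhrf1, Dppa3 and Trim28 and the first Dnmt3a probe were well above background in all 8 pools. Dnmt3l was so in 3 treated and 4 control pools, and Dnmt1 in 1 treated pool and 3 control pools. Dnmt3b was detected in 2 treated and 2 control pools and Zfp57 in 1 treated pool and 0 control pools, so neither was tested. The middle and last Dnmt3a probes were not well above background in any pool.

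No tested probe of these genes was called higher or lower. With limma's moderated test of the log2 ratio against 0, adjusted by Benjamini-Hochberg over all 8115 tested probes, 0 of 7 member probes were higher and 0 lower in treated oocytes, and 0 of 7 were under an unadjusted p of 0.05. The background was 0% of all tested probes called higher, 0% called lower and 3.99% under an unadjusted p of 0.05. The 95% intervals of the 7 ratios together ran from 0.544-fold to 1.71-fold. These bounds describe the precision that 4 arrays gave under the reported processing, not the choice of processing. With the scanner software's processed signals, the mean log2 ratios of Dnmt1 and Dnmt3l were -0.91 and -0.96. These lay below the lower limits of their reported intervals, -0.88 and -0.72. In the reported processing the mean was above 0 for 4 probes and below 0 for 3. All 7 had both signs among the 4 arrays, and 0 lay on the same side of 0 on every array. Among all tested probes with 4 values, the share below 0 on all arrays was 9.18% and the share above 0 on all was 3.04%. In a pool, fewer oocytes carrying a transcript and less of it per oocyte cannot be told apart.

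**Figure D1:**
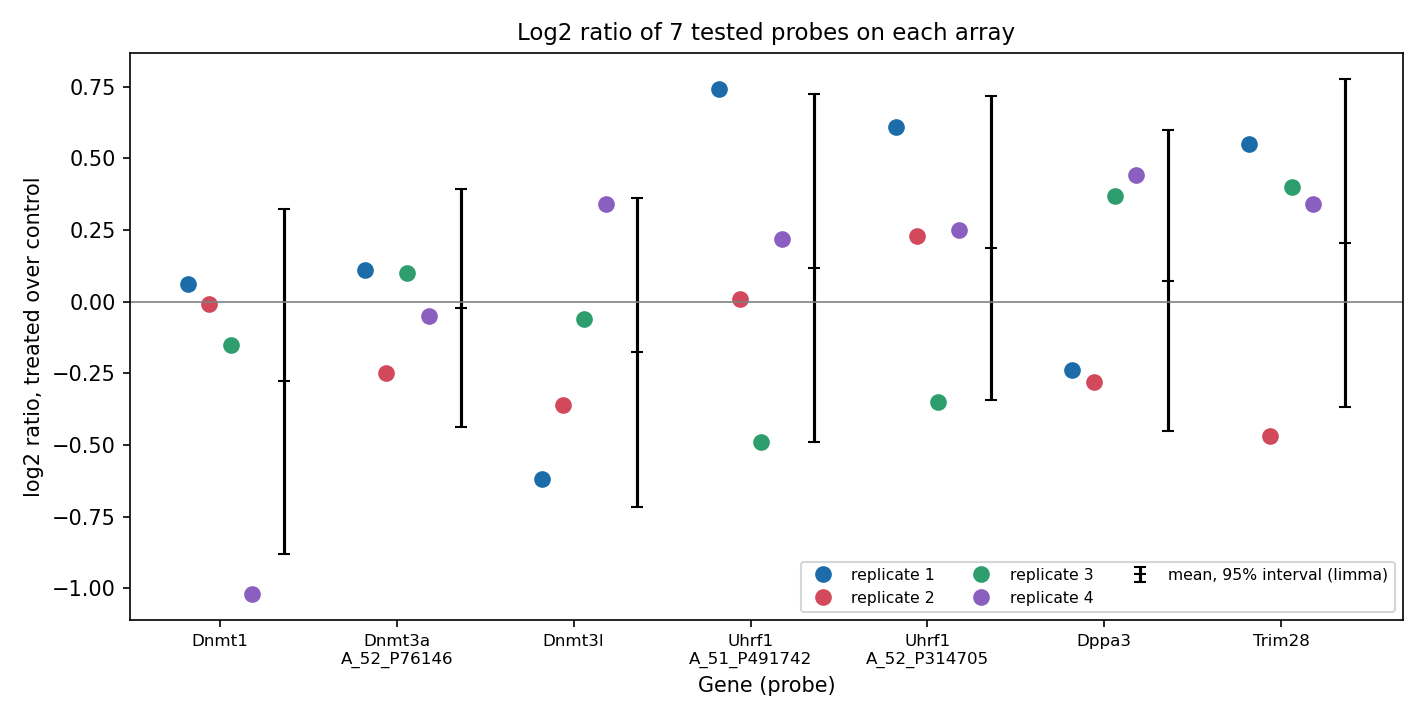
Log2 ratio of treated over control for each tested probe. Points are the 4 replicates and the black bar is the mean with limma's 95% interval. Every interval spans 0, and each probe has points on both sides of 0.

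Dnmt1, the maintenance methyltransferase, had net signals of 43.2, 4.20, 5.70 and 15.5 in the treated pools of replicates 1 to 4, against 27.3, 20.6, 42.8 and 194.2 in the control pools. The normalised log2 ratios were 0.06, -0.01, -0.15 and -1.02. Replicates 1 to 3 lay close to 0 and replicate 4 alone was low. The mean was -0.28 ± 0.24 (SE, n = 4), which did not pass (limma's adjusted p = 0.93), and without replicate 4 it was -0.03. Without replicate 1 it was -0.39. The offset of 50 added in background correction draws ratios of dim probes toward 0, but its effect here was not tested alone. With the scanner software's processed signals, which also differ in background subtraction and dye normalisation, the mean was -0.91 (limma's adjusted p = 0.83). With no background subtraction it was -0.33 (limma's adjusted p = 0.88).

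Uhrf1, which recruits Dnmt1 to hemimethylated DNA, was measured by both of its probes. The downstream probe had net signals of 10014, 1116, 1248 and 5880 in treated pools of replicates 1 to 4, against 2492, 2291, 6681 and 16791 in control pools. These raw values followed the overall brightness of the dyes on each array, and the normalised log2 ratios were 0.61, 0.23, -0.35 and 0.25. The upstream probe gave 0.74, 0.01, -0.49 and 0.22. Replicate 1 was the highest and replicate 3 the lowest with both probes, so the 2 probes ranked these arrays alike. They differed by 0.13 on average over the 4 arrays in absolute log2 ratio, where 906 other genes with 2 tested probes had a median difference of 0.57 (quartiles 0.34 and 0.83). Those other pairs were not matched for brightness or distance, and the Uhrf1 probes lie only 43 bases apart. The means were 0.19 ± 0.21 for the downstream and 0.12 ± 0.24 for the upstream probe (SE, n = 4), and neither passed (limma's adjusted p = 0.93 and 0.96). Without replicate 1 they were 0.05 and -0.09. With median centring in place of loess they were -0.57 and -0.52, a setting that moved the median of all tested probes to -0.32.

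The de novo enzyme Dnmt3a was read by its first probe, the one whose genome span exceeds its length. Net signals were 289.8, 21.9, 25.6 and 49.4 in treated pools, against 124.2, 145.9, 99 and 147.6 in control pools. The log2 ratios were 0.11, -0.25, 0.10 and -0.05, the narrowest spread among the tested probes of the group. Their SD was 0.17, where the median SD over all tested probes was 0.52. The mean was -0.02 ± 0.17 (SE, n = 4; limma's adjusted p = 0.99), and -0.07 without replicate 1. The 95% interval ran from 0.739-fold to 1.31-fold. With processed signals the mean was -0.23, and with median centring it was -0.27. The middle and last probes stayed between 0.40 and 6.20 net units in treated pools and between 12.8 and 20.9 in control pools, and no fold is given for them.

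Dnmt3l, the partner of Dnmt3a in oocytes, had net signals of 55.0, 14.1, 13.5 and 31.0 in treated pools, against 64.6, 160.4, 74.6 and 47.0 in control pools. Its log2 ratios were -0.62, -0.36, -0.06 and 0.34, with replicate 1 lowest and replicate 4 the one value above 0. The mean was -0.18 ± 0.22 (SE, n = 4; limma's adjusted p = 0.93), and -0.03 without replicate 1. With processed signals it was -0.96 (limma's adjusted p = 0.83). Dnmt3b had net signals of 20.3, 7.60, 8.40 and 23.4 in treated pools, against 18.1, 20.8, 26.3 and 47.3 in control pools. Its log2 ratios, from 0.00 to 0.14, are given without a call, because in neither channel was it detected on 3 arrays.

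Dppa3, the protector of the maternal genome, had net signals of 43337, 1351, 6217 and 11033 in treated pools, against 17022, 3971, 23102 and 28887 in control pools. The log2 ratios were -0.24, -0.28, 0.37 and 0.44, with replicates 1 and 2 below 0 and replicates 3 and 4 above. The mean was 0.07 ± 0.21 (SE, n = 4; limma's adjusted p = 0.97), and 0.18 without replicate 1. The 95% interval ran from 0.732-fold to 1.51-fold. The sign of this mean depended on the setting: it was -0.20 with processed signals and, under the median centring described for Uhrf1, -0.71.

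Trim28, the scaffold recruited by Zfp57, had net signals of 96.3, 21.5, 20.0 and 70.5 in treated pools, against 25.4, 219.3, 39.1 and 138.8 in control pools. The log2 ratios were 0.55, -0.47, 0.40 and 0.34. Replicate 2 was the one value below 0. The mean was 0.21 ± 0.23 (SE, n = 4; limma's adjusted p = 0.93), and 0.09 without replicate 1. It was -0.06 with median centring. Leaving out replicate 2 moved it to 0.43, which did not pass (limma's adjusted p = 0.99).

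Zfp57 was at the edge of detection. Its net signals were 3.50, 3.10, 39.0 and 6.30 in treated pools, against 16.0, 14.3, 14.5 and 14.8 in control pools. The treated pool of replicate 3 was the single pool well above background, with a log2 ratio of 1.14, and the other arrays gave -0.06, 0.01 and 0.06. With 1 of 8 pools well above background, no fold is given for Zfp57.

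Over the 6 tested genes, each by its brightest tested probe, the median log2 ratio was 0.09, -0.26, 0.02 and 0.30 on replicates 1 to 4, a mean of 0.03 ± 0.23 (SD, n = 4). Over all 6921 tested genes the same median was 0.00, -0.02, -0.04 and -0.04, a mean of -0.03 ± 0.02 (SD, n = 4). The array medians of the group thus lay on both sides of that of all genes. None of the 7 probes had a mean change of 2-fold or more, against 1.91% of all tested probes. The plot of mean against spread shows the 7 probes inside the cloud of all tested probes.

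**Figure D2:**
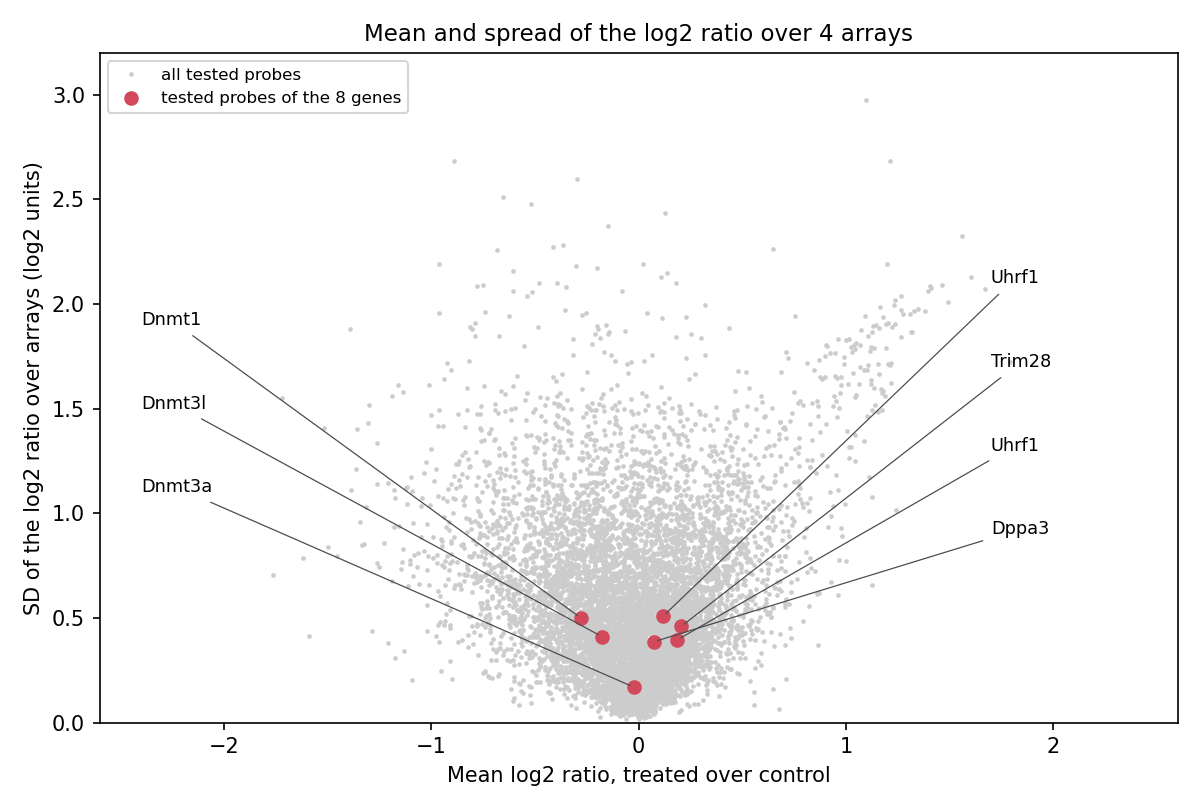
Mean log2 ratio (x axis) against the SD of the log2 ratio over 4 arrays (y axis) for 8115 tested probes in grey and the 7 tested member probes in red. The member probes have means between -0.28 and 0.21 and SDs between 0.17 and 0.51.

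For Uhrf1, Dppa3 and Dnmt3a the 2 pools of an array differed by less than the range over arrays within either group. Levels here are log2 values of each channel after loess and quantile normalisation of the mean intensity between arrays, and each probe is compared only with itself. The 2 levels of an array share the same mean intensity and differ only by the normalised ratio. A difference within arrays smaller than the range over arrays is therefore partly built in. Dppa3 had levels of 14.33, 11.47, 14.39 and 13.97 in the treated pools of replicates 1 to 4, against 14.57, 11.75, 14.02 and 13.53 in the control pools. Both pools of replicate 2 were the lowest of their group, and the range over arrays was 2.92 in treated and 2.82 in control pools. The largest difference between the 2 pools of an array was 0.44. The upstream Uhrf1 probe had a range of 2.55 in treated and 2.54 in control pools, with both pools of replicate 2 again lowest, at 8.44 in the treated and 8.43 in the control pool. Its largest difference within an array was 0.74. For the downstream probe these values were 1.76 in treated pools, 1.74 in control pools and 0.61 within an array. Dnmt3a had ranges of 0.68 in treated and 0.67 in control pools, with at most 0.25 within an array. Trim28 had a range of 0.56 in treated and 1.38 in control pools, and its largest difference within an array was 0.55. For Dnmt1 and Dnmt3l the largest differences within an array, 1.02 and 0.62, lay above their ranges in treated pools, 0.41 and 0.55, and below those in control pools, 1.34 and 1.03. These comparisons are descriptive and no test was made of them.

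**Figure D3:**
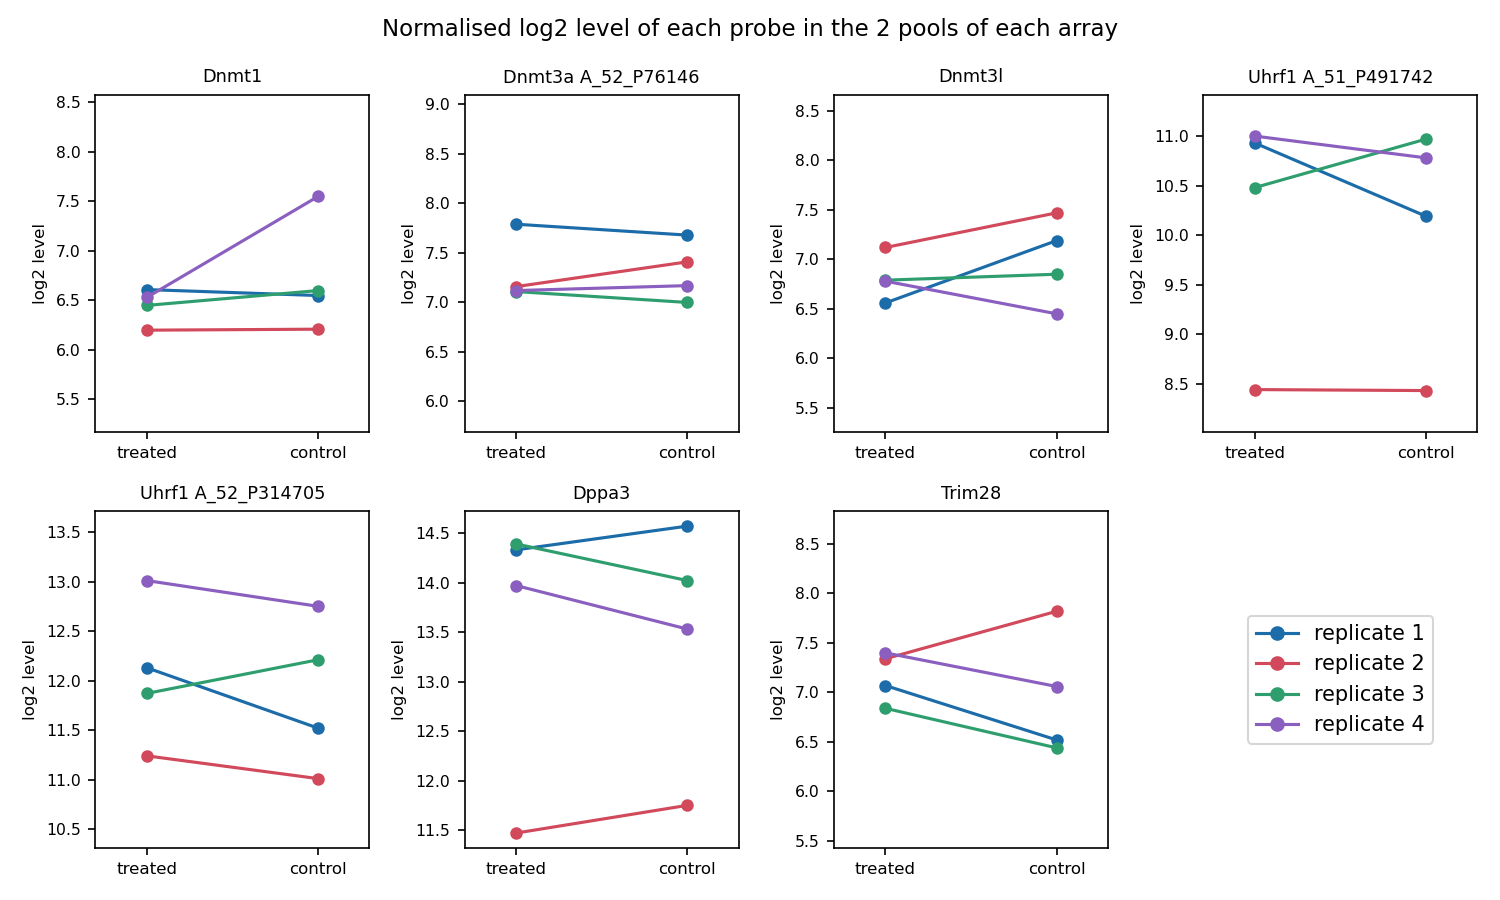
Normalised log2 level of each tested probe in the treated (left) and control (right) pool of each array, joined by a line per replicate. Each panel spans the same number of log2 units, but its axis starts at its own level. For Dppa3 and both Uhrf1 probes the lines of replicate 2 lie lowest in both pools.

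Partners of the 8 genes and imprinted genes showed no call either. These 5 lists were drawn up for this report, each gene was read by its brightest tested probe, and 0 genes of any list were called (limma's lowest adjusted p = 0.93). Of 15 partners of maintenance and readers of methylated DNA, 5 were tested, with a median log2 ratio of 0.12. Usp7, a deubiquitinase that binds Dnmt1 and Uhrf1, had log2 ratios of -0.17, 2.17, 1.16 and 0.55, a mean of 0.93 ± 0.40, and was below 0 on replicate 1 alone. Its mean was 1.29 without replicate 1, 0.51 without replicate 2 and 0.28 with median centring. Hells, a chromatin remodeller needed for normal DNA methylation, had 1.47, -0.12, -0.50 and 0.91, a mean of 0.44 ± 0.37. Its 4 values were divided evenly about 0, and without replicate 1 the mean was 0.10. It was 0.75 without replicate 3, 0.28 without replicate 4, 0.08 with median centring and -0.23 with processed signals.

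Of 12 genes of demethylation and base excision, 5 were tested, with a median of 0.13. Ung, which removes uracil from DNA, had 0.38, 0.58, 0.11 and 0.40, a mean of 0.37 ± 0.17. Ung was thus above 0 on every array without passing (limma's adjusted p = 0.93), and its mean was 0.36 without replicate 1 and -0.29 with median centring.

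Of 17 members of the repressor complexes around Trim28, 9 were tested, with a median of 0.04, and 8 of the 9 means were above 0, between 0.03 and 0.10. The lowest unadjusted p from limma in this list was 0.58, and the median of the means over all tested genes was -0.02. Gatad2a, a subunit of the NuRD deacetylase complex, had a mean of -0.17 ± 0.29, and Cbx1, a heterochromatin protein that Trim28 binds, had 0.08 ± 0.16. Without replicate 1 they were at -0.15 and 0.09, and with median centring at -0.77 and -0.62. The mean of Gatad2a was 0.13 without replicate 4. Of 21 writers, erasers and readers of histone marks tied to oocyte methylation, 14 were tested, with a median of 0.01 and 1 under an unadjusted p of 0.05. It was Setd2, a histone methyltransferase whose mark guides DNA methylation in oocytes, with log2 ratios of -0.58, -0.08, -2.53 and -2.26 and a mean of -1.36 ± 0.47 (limma's adjusted p = 0.93). Its mean was -1.62 without replicate 1, -0.97 without replicate 3, -1.06 without replicate 4 and -2.15 with processed signals, without passing in any. Limma's unadjusted p was 0.105 without replicate 3 and 0.110 without replicate 4. Hira, a histone chaperone, had -1.5, 1.5, 2.77 and 3.08, a mean of 1.46 ± 0.79, with replicate 1 opposite to the rest. Without replicate 1 its mean was 2.45, which did not pass (limma's adjusted p = 0.19), and it was 0.92 without replicate 4, 0.73 with processed signals and 0.62 with median centring.

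Of 34 imprinted genes, 11 were tested, with a median of -0.10, 4 means above 0 and 7 below. Igf2r, a receptor that clears the growth factor Igf2 and is expressed from the maternal allele, had log2 ratios of -0.63, 0.00, -2.02 and -0.77, a mean of -0.85 ± 0.35, and was detected in 1 treated and 3 control pools. Igf2r thus met the detection rule through the control channel alone, which favours a ratio below 0. Its mean was -0.93 without replicate 1, -0.47 without replicate 3 and -3.22 with processed signals, without passing in any (limma's lowest adjusted p = 0.56). Peg3, a zinc finger gene expressed from the paternal allele after fertilization, was well above background in 0 treated and 3 control pools. Its mean log2 levels were 6.25 in treated and 6.58 in control pools, and it did not pass (limma's adjusted p = 0.93). The difference is open to dye bias, and Peg3 met the detection rule through the control channel alone. On replicate 2 its log2 ratio was 0.02. Its mean log2 ratio was -0.33 ± 0.18, and was -0.26 without replicate 1 and -2.65 with processed signals. All means of single genes in these lists are given with their SE over 4 arrays.

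**Figure D4:**
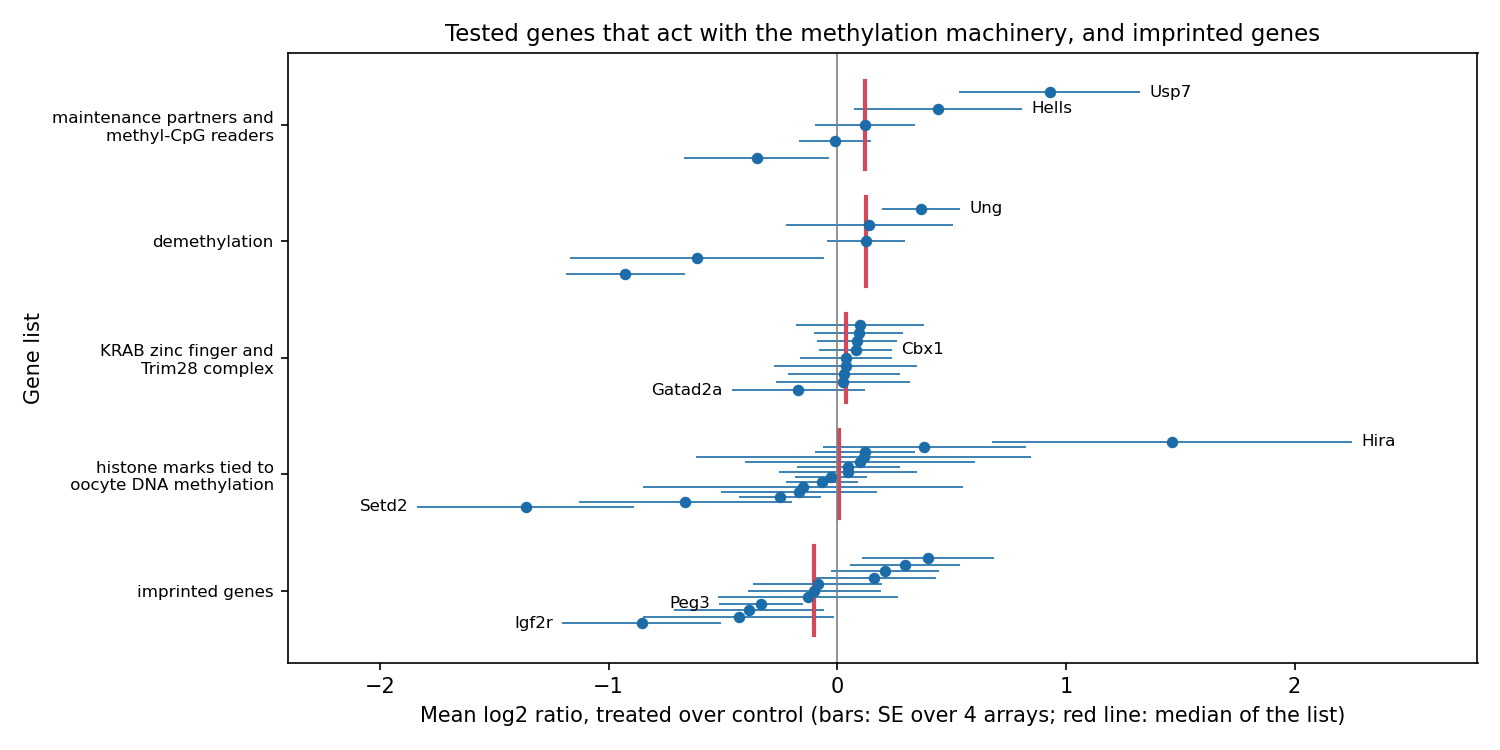
Mean log2 ratio of treated over control, with its SE over 4 arrays, for each tested gene of the 5 lists. The red line is the list's median, between -0.10 and 0.13, and the list genes described in the text are named.

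For each tested member, the named gene with the most similar log2 ratios was sought among 6159 genes with 4 values, by the root mean square difference over the 4 arrays. Dnmt1 was nearest to Zc3h4, at a difference of 0.04, with -1.01 on replicate 4 in Zc3h4 also. Dnmt3a was nearest to Tmem87a (0.06), Dnmt3l to Tbp (0.12) and Uhrf1, by its brighter probe, to Rap2c (0.09). Trim28 was nearest to Ube2q2 (0.10) and Dppa3 to the antisense gene Zfhx2os (0.10). With 4 arrays and so many genes, close matches of this kind are a description only.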

How the data were processed

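Scanner files of 4 two-colour arrays were used. Their intensity values, per the file headers, come from Agilent Feature Extraction 9.5.1.1, which the submitters' processing notes also name. The deposited files also hold processed intensities, background-subtracted and dye-normalized, with their log10 ratio of red over green, and the log10 ratios in the authors' value table match it (largest difference 5.0e-10).

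In limma 3.58.1 (R 4.3.3), normexp with offset 50 corrected the background and loess, giving control spots no weight, normalised each array on the log2 scale of the deposited intensities. Spots with outlier flags were left out, 0 spots were saturated, and spots of a probe were averaged. Probes that passed the detection rule were tested by lmFit and eBayes, and p was adjusted by Benjamini-Hochberg over 8115 probes, at a threshold of 0.05. The test was tried on simulated data. Names came from the files, updated through a RefSeq table of GRCm38.p6 used for names and strand only. Named genes are all members, the 2 genes with the smallest p in each list of partners and the nearest gene to each member; 1 gene that this rule names is not reported here. The members and lists were chosen with earlier results of these data known. The number of arrays limits precision. All arrays shared 1 slide and scan.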

Additional observations from a re-analysis of the deposited data

Results flagged for a closer look

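Of 33 sets of 4 values checked for 1 array far from the other 3, 2 were marked, where chance marks about 1 in 20. The Dppa3 level in the treated pool of replicate 2 was 11.47 on the log2 scale, against 13.97 to 14.39 in the other treated pools. The Dnmt3a level in the treated pool of replicate 1 was 7.79, against 7.11 to 7.16 in the others. In both cases the normalised control level of that array was also extreme in its group, at 11.75 for Dppa3 and 7.68 for Dnmt3a. The 2 levels of an array share the mean intensity of a spot, so they are not independent. Before normalisation, the Dnmt3a control pool of replicate 1 had 124.2 net units, inside the control range of 99 to 147.6. Zfp57, which was left out of the test for low detection, had a net signal of 39.0 in the treated pool of replicate 3, the only pool in which it was well above background. The control pools lay between 14.3 and 16.0.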

How the results depend on the processing

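Under each of the 15 alternatives run, 0 probes or genes passed in the whole table and 0 among the members. The lowest adjusted p from limma for a member was 0.60, with the sign of replicate 1 turned, and over all probes it was 0.059 in that setting. The median over the members was -0.33 with median centring, against 0.03 as reported, and -0.05 to 0.13 when 1 array was left out. It was -0.18 with processed signals or the authors' values, 0.15 with detection required in both channels, which left 4 genes, and -0.01 with replicate 1 turned. Median centring moved the median of all tested probes to -0.32 and put Uhrf1 at -0.52 (upstream) and -0.57 (downstream), Dppa3 at -0.71, Trim28 at -0.064, Ung at -0.29 and Cbx1 at -0.62. Processed signals and the authors' values gave -0.20 for Dppa3 and -0.23 for Hells. With replicate 1 turned, Dnmt3l was at 0.13, Uhrf1 at -0.25 (upstream) and -0.12 (downstream), Trim28 at -0.069 and Hells at -0.30. Leaving out 1 array gave -0.088 to 0.32 for the upstream Uhrf1 probe, -0.066 to 0.055 for Dnmt3a, -0.050 to 0.19 for Dppa3 and -0.38 to 0.13 for Gatad2a. The cause of these sign changes was not tested. Dnmt1 kept its sign in each of its 13 alternatives, from -0.91 to -0.03. These alternatives reuse the same arrays, and Dnmt1 met the detection rule through the control channel alone. The kept sign is therefore no separate evidence of a change. Unadjusted calls over all probes ran from 71 with trend and robust eBayes of 8115 to 1042 of 8115 with replicate 1 turned, against 324 of 8115 as reported. They numbered 828 of 8113 without replicate 1 and 1054 of 41174 with no filter. The reported test is itself paired within arrays. Treating the pools as unpaired, with no replicate block, left 0 probes called, and the members' median was then 0.03. No block for slide or scan was fitted, because the files show 1 of each. Dim signal limits Dnmt1, Dnmt3b, Dnmt3l and Zfp57. It also limits Dnmt3a and Trim28, whose net signals in treated pools were as low as 21.9 and 20.0.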
